A study of Homo sapiens with 10 samples.

Results

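The 10 genes described here encode enzymes that remove oxidants or rebuild the thiols that do so, and several are classical targets of the transcription factor NRF2. They are HMOX1, NQO1, TXNRD1, GCLC, GCLM, SRXN1, SOD1, SOD2, CAT and GPX1. They were taken by name, as every non-control probe whose RefSeq accession carries the symbol of a listed gene. This gave 11 probes of the 42405 on the array, 1 for each gene and a second for GPX1. Of the 10 genes, 9 had a probe that stood well above its local background in 3 or more of a group's 5 arrays and were tested, and 8 were well above background on all 10 arrays.

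The cells were MEG-01, a line from a human megakaryoblastic leukemia that serves as a model of platelet precursors. Cultures were nucleofected with 200 nM of a synthetic precursor of miR-1225-3p or with 200 nM of a scrambled control precursor, and RNA was taken 24 h later, so the control cells went through the same electrical transfection. Each group had 5 arrays, called biological replicates of this single line in the labels, and no sorting of transfected cells was described. The signal is therefore that of a whole culture, in which fewer expressing cells and less RNA per cell cannot be told apart.

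NRF2, encoded by NFE2L2, is held in the cytoplasm and marked for degradation by KEAP1. Oxidants and electrophiles modify KEAP1, NRF2 accumulates, pairs with a small MAF protein and binds antioxidant response elements in front of its target genes, while BACH1 occupies the same elements as a repressor until heme releases it. Blood cells in sickle cell disease, the setting of the study, are exposed to heme and iron from lysed red cells, and heme oxygenase, glutathione synthesis and the thioredoxin system are the usual answers of a cell to that load.

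The transfected microRNA is shown because it is the only designed difference between the groups. The mature sequence below is that of RefSeq (GRCh38.p14, chr16:2090195-2090216, minus strand), 22 bases long from 5′ to 3′, with the seed, bases 2 to 8, in capitals. No match of this seed to the transcripts of the enzymes was searched, since transcript sequences were not used here.
hsa-miR-1225-3p: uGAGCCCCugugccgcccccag

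Values are normalized log2 signals of a probe, so that a difference of 1 is a doubling, and they can be set against the other arrays of the same probe but not against another probe. A gene was called when its adjusted p from limma, with Benjamini-Hochberg adjustment over all 17379 genes tested, was under 0.05. Between 41.95% and 61.18% of the spots of an array were well above background. The arrays lay on 2 slides, each with arrays of both groups. On the first principal component miR-1225-3p replicate 5 scored 56.74 and lay among the scrambled arrays (48.65 to 79.87), away from miR-1225-3p replicates 1 to 4 (-133.4 to -52.98). The results of the enzymes and the called list genes are therefore given with and without replicate 5. After normalization the median signal of the kept probes was between 7.25 and 7.37 in miR-1225-3p replicates 1 to 4, 7.52 in replicate 5 and between 7.45 and 7.60 in the scrambled arrays. The part of these differences in the results was not tested.

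Both superoxide dismutases rose with miR-1225-3p, SOD1 with a log2 fold change of 0.54 and SOD2 with 0.42, whereas TXNRD1 fell by 1.78 and SRXN1 fell by 0.38 on the log2 scale. HMOX1, GCLC, GCLM, CAT and GPX1 had log2 fold changes between -0.52 and -0.095 and did not pass the test. Thus 4 of 9 enzymes tested were called, 44.4%, against 35% of all genes tested, of which 17% were higher and 18.1% lower. Over the 9 enzymes the median log2 fold change was -0.38, beside -0.06 over all genes tested. For none of the 9 did all arrays of a group lie above all of the other, an arrangement that 12.7% of all genes tested showed. Of the 4 called, only TXNRD1 had a measured difference of more than 2-fold, and 4 of its 5 miR-1225-3p signals were not well above background, so that its size depends on how background is treated.

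**Figure D1:**
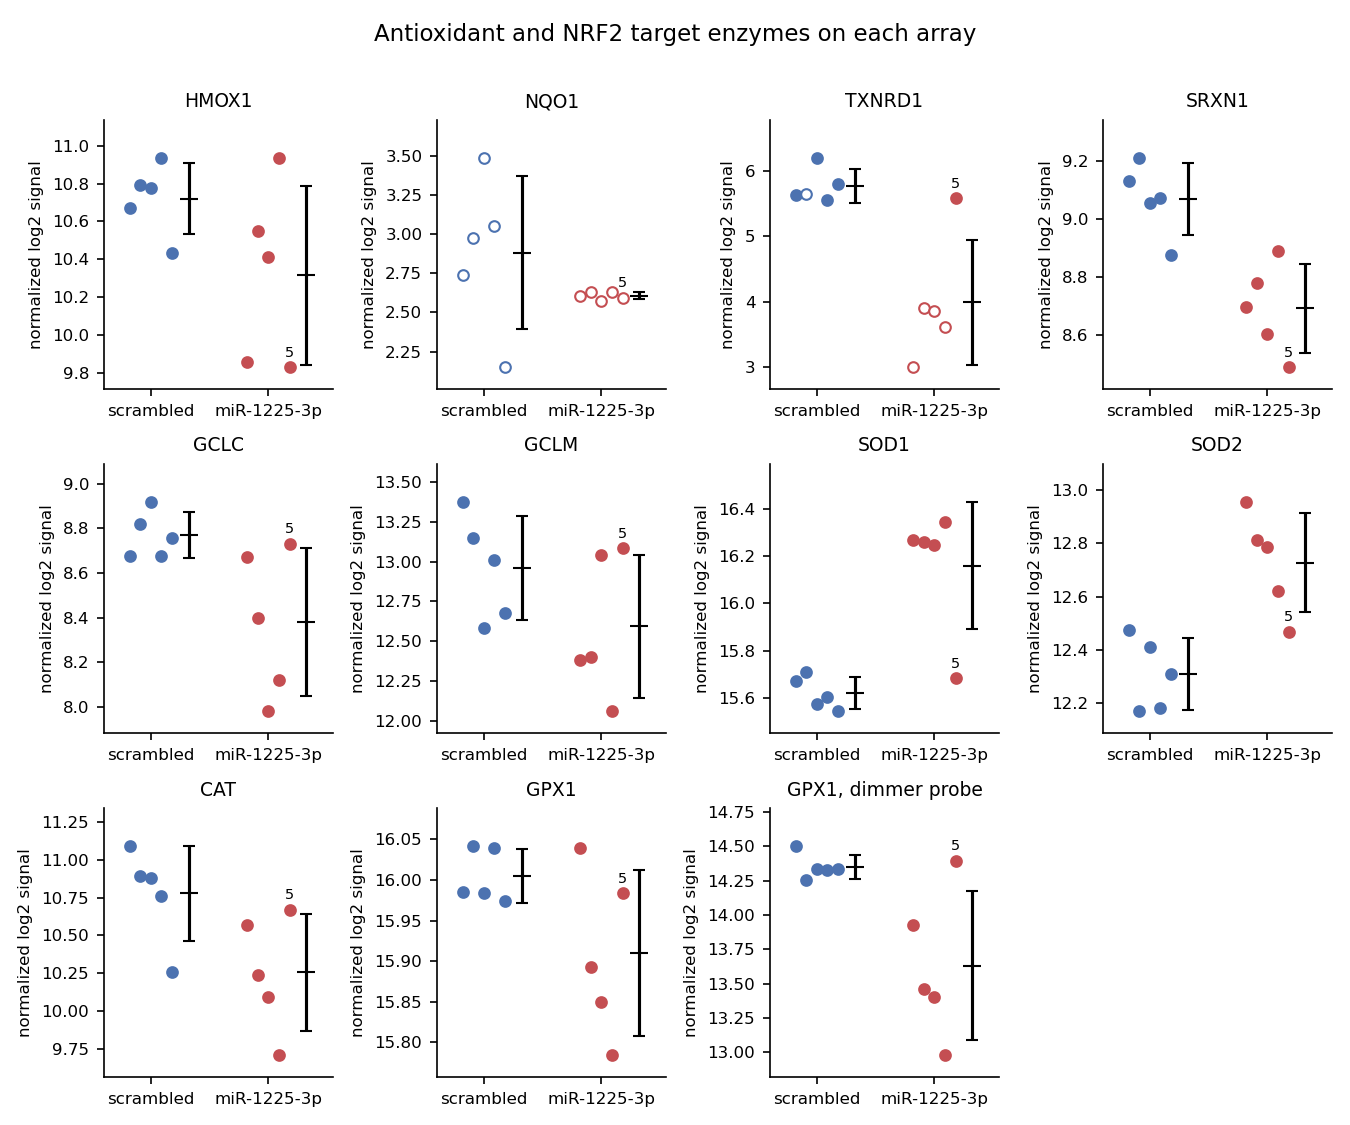
Normalized log2 signal (vertical axis, with its own range in each panel) of the 11 probes on the 5 scrambled arrays (blue) and the 5 miR-1225-3p arrays (red). Filled points were well above background, open points were not, and black bars show the mean ± SD of a group. The digit 5 marks miR-1225-3p replicate 5, which lies near the scrambled mean for all tested enzymes but HMOX1 and SRXN1.

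Heme oxygenase 1 (HMOX1) opens the heme ring and releases iron, carbon monoxide and biliverdin. Its signal was 9.86, 10.55, 10.41, 10.94 and 9.83 in miR-1225-3p replicates 1 to 5 and 10.67, 10.79, 10.78, 10.93 and 10.43 in scrambled replicates 1 to 5. Replicates 1, 3 and 5 of miR-1225-3p lay below all scrambled arrays, while replicate 4 was level with the highest of them. This gave a log2 fold change of -0.40 (standard error 0.22, 95% interval -0.90 to 0.09, limma adjusted p = 0.168, exact permutation p = 0.135, two-sided), and -0.28 without replicate 5 (limma adjusted p = 0.273). The interval thus spans a fall of close to 2-fold and no change, and the value was 0.03 when each array was scaled to its 75th percentile.

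NQO1, a quinone reductase that keeps quinones out of radical cycles, was not well above background on any array. Its signal ranged from 2.57 to 2.63 with miR-1225-3p and from 2.15 to 3.49 in the scrambled arrays, and no fold change is given for it. The constitutive heme oxygenase HMOX2 and the biliverdin reductase BLVRA, which act beside HMOX1 in heme breakdown, were both tested and neither was called, with log2 fold changes of -0.29 and 0.03 (-0.31 and 0.11 without replicate 5). HMOX2 was at 0.05 after scaling to the 75th percentile.

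TXNRD1 encodes the cytosolic thioredoxin reductase, a selenium enzyme that uses NADPH to reduce thioredoxin. Its signal was 3.00, 3.89, 3.85 and 3.61 in miR-1225-3p replicates 1 to 4, none of them well above background, and 5.58 in replicate 5, which was. In scrambled replicates 1 to 5 it was 5.63, 5.65, 6.20, 5.56 and 5.80, well above background on all but replicate 2. Replicates 1 to 4 thus lay below every scrambled array, while replicate 5 was level with the lowest of these, scrambled replicate 4.

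The log2 fold change of TXNRD1 was -1.78 (standard error 0.40, 95% interval -2.67 to -0.88), with an adjusted p of 0.0157 from limma and an exact permutation p of 0.0159, two-sided, where 0.00794 is the smallest p that 5 against 5 arrays allow. TXNRD1 entered the test through the scrambled group alone, where 4 arrays were well above background, against 1 miR-1225-3p array. Its p-values therefore rest in part on signals near the floor. Without replicate 5 no miR-1225-3p array measured TXNRD1 well above background, and no fold is given. The call as lower (limma adjusted p = 9.01e-05) there compares the scrambled arrays with floor values only. With the slide as a block the log2 fold change was -1.84 (limma adjusted p = 0.0214). Within slide 1, where neither miR-1225-3p array was well above background, it was called as lower too (limma adjusted p = 0.0150). Within slide 2, which holds replicate 5, the log2 fold change was -1.25 (limma adjusted p = 0.494). The size of this dim signal depended on the background correction, and the log2 fold change was -0.43 (limma adjusted p = 0.0313) after normexp correction with an offset of 50.

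Sulfiredoxin (SRXN1) reduces peroxiredoxins that have been overoxidized by peroxide. Its signal was 8.70, 8.78, 8.60, 8.89 and 8.49 in miR-1225-3p replicates 1 to 5 and 9.13, 9.21, 9.05, 9.07 and 8.87 in scrambled replicates 1 to 5. Replicate 5 was here the lowest array of all, and the groups overlapped only in miR-1225-3p replicate 4 and scrambled replicate 5. The mean difference between the groups was -0.38 on the log2 scale (standard error 0.125, 95% interval -0.66 to -0.10, limma adjusted p = 0.0407, exact permutation p = 0.0159, two-sided) and -0.33 without replicate 5 (limma adjusted p = 0.0330).

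The call of SRXN1 ended when any of scrambled replicates 1 to 4, or of miR-1225-3p replicates 1 to 3, was left out (limma adjusted p between 0.0679 and 0.0919). With these arrays left out, between 12.3% and 24.4% of all genes were called, beside 35% with all arrays. The call of SRXN1 was also lost with the slide as a block (log2 fold change -0.38, limma adjusted p = 0.0558). Within slide 1 the log2 fold change was -0.28 (limma adjusted p = 0.266) and within slide 2 it was -0.48 (limma adjusted p = 0.494). The value moved with the scaling, to -0.26 after quantile normalization (limma adjusted p = 0.189) and -0.09 after scaling to the 75th percentile (limma adjusted p = 0.691).

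**Figure D2:**
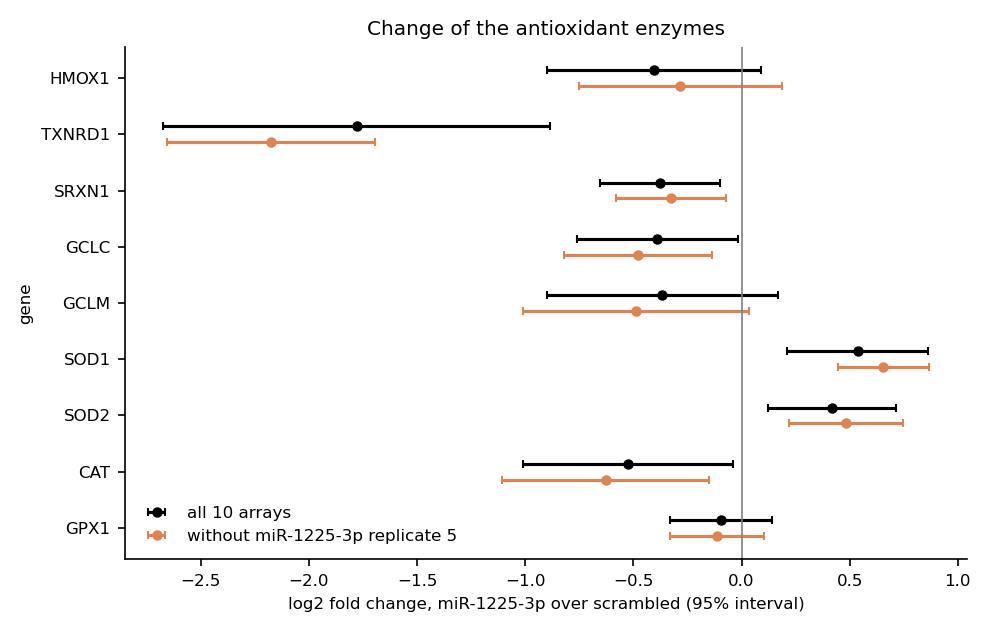
Log2 fold change of the 9 enzymes tested, miR-1225-3p over scrambled (horizontal axis), with 95% intervals from limma, for all 10 arrays (black) and without miR-1225-3p replicate 5 (orange). TXNRD1 lies farthest from 0, and its orange value rests on arrays not above background. Both dismutases lie to the right of 0 and the other enzymes to the left.

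The core of the antioxidant response element, TGACNNNGC, was searched on both strands in the RefSeq windows from 250 bases before to 50 bases after each gene start (GRCh38.p14). It was present in 13.3% of 35116 windows and in 16.1% of 27305 genes. Of the enzymes, 8 had a window, and TXNRD1 and GCLM held the motif in it, a description of letters and not of bound sites. Sequence outside these windows was not searched, so the lack of a match does not mean that a gene has no such element. The matches with 8 bases on each side are shown in the direction of the gene, with the motif in capitals and, where it lies on the opposite strand, as its reverse complement. TXNRD1 has 2 start sites with a match. The first match lies 99 bases before the first start, the second 8 bases before it and the third 102 bases before the other start. In GCLM the match lies 34 bases before the start.
TXNRD1, chr12:104215672-104215696, plus strand: acgggctaTGACTTCGCtgttgtca
TXNRD1, chr12:104215763-104215787, plus strand: gtccttcgGCTCCGTCAgttcccac
TXNRD1, chr12:104286922-104286946, plus strand: ggatttctGCTTTGTCAttctgact
GCLM, chr1:93909448-93909472, minus strand: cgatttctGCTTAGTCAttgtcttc

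GCLC and GCLM are the catalytic and the modifier subunit of glutamate-cysteine ligase, the rate-limiting enzyme of glutathione synthesis. The GCLC signal was 8.67, 8.40, 7.98, 8.12 and 8.73 in miR-1225-3p replicates 1 to 5 and 8.68, 8.82, 8.92, 8.68 and 8.76 in scrambled replicates 1 to 5. Replicates 2, 3 and 4 of miR-1225-3p lay below all scrambled arrays, replicate 1 was level with the lowest of these, and replicate 5 lay inside their range. The log2 fold change was -0.39 (standard error 0.17, 95% interval -0.76 to -0.02, limma adjusted p = 0.0887, exact permutation p = 0.0317, two-sided). Without replicate 5 GCLC passed the test, with a log2 fold change of -0.48 (limma adjusted p = 0.0245).

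The GCLM signal was 12.38, 12.40, 13.04, 12.06 and 13.08 in miR-1225-3p replicates 1 to 5 and 13.37, 13.15, 12.58, 13.01 and 12.68 in scrambled replicates 1 to 5. The groups overlapped widely, with replicates 3 and 5 of miR-1225-3p above the mean of the scrambled arrays. Their difference in means was -0.37 on the log2 scale (standard error 0.24, 95% interval -0.90 to 0.17, limma adjusted p = 0.240, exact permutation p = 0.175, two-sided), -0.49 without replicate 5 (limma adjusted p = 0.100) and 0.19 after scaling to the 75th percentile.

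SOD1 is the cytosolic copper-zinc dismutase that turns superoxide into hydrogen peroxide. Its signal was 16.27, 16.26, 16.24 and 16.34 in miR-1225-3p replicates 1 to 4 and 15.68 in replicate 5. It was 15.67, 15.71, 15.58, 15.61 and 15.54 in scrambled replicates 1 to 5. Replicates 1 to 4 lay within 0.1 of each other and above all scrambled arrays, and replicate 5 lay inside the scrambled range. The log2 fold change was 0.54 (standard error 0.15, 95% interval 0.21 to 0.86), a 1.45-fold higher signal with an adjusted p of 0.0236 from limma and an exact permutation p of 0.0159, two-sided.

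Without replicate 5 the log2 fold change of SOD1 was 0.66 (limma adjusted p = 0.000452). It was 0.55 with the slide as a block (limma adjusted p = 0.0331), 0.67 within slide 1 (limma adjusted p = 0.0372) and 0.43 within slide 2 (limma adjusted p = 0.511). Scaling to the 75th percentile gave the highest value, 1.25 (limma adjusted p = 0.0137), and without any normalization it was 0.82 and no longer called (limma adjusted p = 0.170). The call also ended when scrambled replicate 3 or 4, or replicate 2 or 3 of the miR-1225-3p arrays, was left out, with log2 fold changes of 0.51 to 0.53 (limma adjusted p between 0.0526 and 0.0628). Between 12.3% and 19.5% of all genes were then called, beside 35% with all arrays.

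SOD2, the manganese dismutase of the mitochondrial matrix, had signals of 12.95, 12.81, 12.79, 12.62 and 12.47 in miR-1225-3p replicates 1 to 5 and 12.47, 12.17, 12.41, 12.18 and 12.31 in scrambled replicates 1 to 5. Replicates 1 to 4 lay above all scrambled arrays, and replicate 5 was level with scrambled replicate 1, the highest of these. The log2 fold change was 0.42 (standard error 0.13, 95% interval 0.12 to 0.72), a 1.34-fold higher signal with an adjusted p of 0.0363 from limma and an exact permutation p of 0.0159, two-sided. Without replicate 5 it was 0.48 (limma adjusted p = 0.00699), with the slide as a block 0.47 (limma adjusted p = 0.0262), and within slides 1 and 2 it was 0.49 and 0.45 (limma adjusted p = 0.0861 and 0.494). The direction was the same when any other single array was left out, but the adjusted p from limma was then between 0.0503 and 0.0870. In these fits between 12.3% and 27.1% of all genes were called, beside 35% with all arrays. The call of SOD2 was kept, among single-array removals, only without replicate 5. It was also lost with the deposited log2 values (0.32, limma adjusted p = 0.0635) and after normexp correction (0.35, limma adjusted p = 0.0521).

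Catalase (CAT) and glutathione peroxidase 1 (GPX1) remove the hydrogen peroxide that dismutases form, the first in peroxisomes and the second with glutathione. The CAT signal was 10.57, 10.24, 10.09, 9.71 and 10.67 in miR-1225-3p replicates 1 to 5 and 11.09, 10.90, 10.88, 10.76 and 10.26 in scrambled replicates 1 to 5. All miR-1225-3p arrays lay below 4 of the scrambled arrays, and scrambled replicate 5 lay among them. The log2 fold change was -0.52 (standard error 0.22, 95% interval -1.01 to -0.04, limma adjusted p = 0.0824, exact permutation p = 0.0476, two-sided). Without miR-1225-3p replicate 5 it was -0.63 (limma adjusted p = 0.0313) and without scrambled replicate 5 it was -0.65 (limma adjusted p = 0.0467), and both passed the test.

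The brighter GPX1 probe, which represents the gene, had signals of 16.04, 15.89, 15.85, 15.78 and 15.98 in miR-1225-3p replicates 1 to 5 and 15.98, 16.04, 15.98, 16.04 and 15.97 in scrambled replicates 1 to 5. The log2 fold change was -0.095 (standard error 0.106, 95% interval -0.33 to 0.14, limma adjusted p = 0.488, exact permutation p = 0.103, two-sided), -0.11 without replicate 5 (limma adjusted p = 0.342) and 0.62 after scaling to the 75th percentile (limma adjusted p = 0.0279). The dimmer probe gave 13.92, 13.46, 13.40, 12.98 and 14.39 against 14.50, 14.26, 14.33, 14.32 and 14.33. On it miR-1225-3p replicates 1 to 4, with a mean of 13.44, lay below all scrambled arrays, with a mean of 14.35. Its log2 fold change was -0.72 (standard error 0.24, limma adjusted p = 0.0412 over all 20648 kept probes, where 35% were called, exact permutation p = 0.0397, two-sided), so that the probes of GPX1 differed in size and in call.

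**Figure D3:**
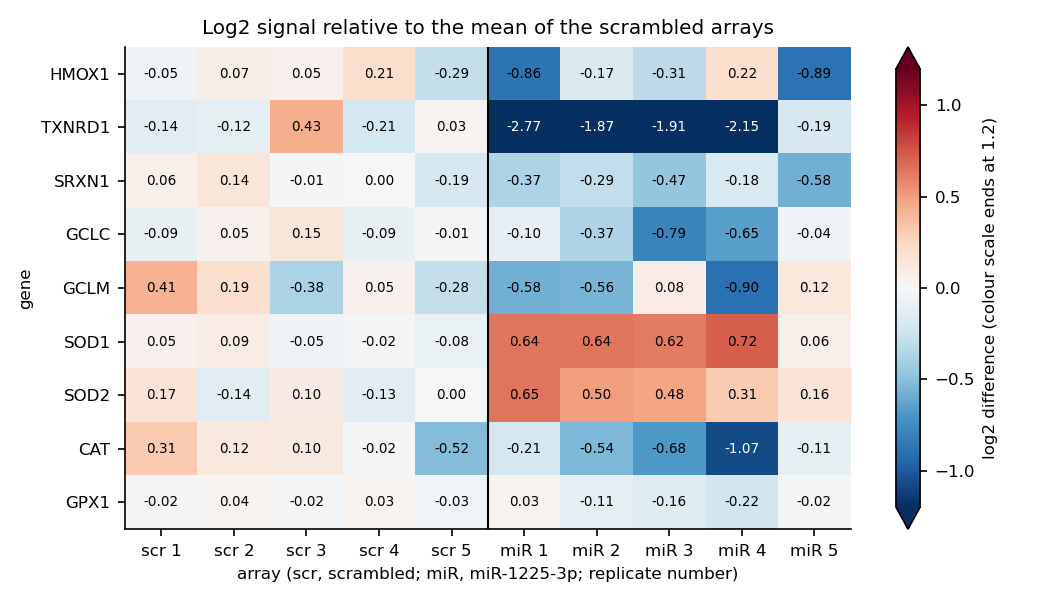
Difference of each array from the mean of the 5 scrambled arrays in normalized log2 signal, for the 9 enzymes tested (rows) and the 10 arrays (columns), printed in each cell, with red for higher, blue for lower and the colour scale ending at 1.2. The columns of miR-1225-3p replicates 1 to 4 show SOD1 and SOD2 higher, and TXNRD1 between -2.77 and -1.87. The column of replicate 5 has HMOX1 and SRXN1 at -0.89 and -0.58 and the other enzymes within 0.2 of the scrambled mean.

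Without miR-1225-3p replicate 5, 6 of the 9 enzymes were called, 2 higher and 4 lower, beside 55.4% of all genes tested. CAT and GCLC were the additional calls. Within slide 1, 2 enzymes passed, beside 25.9% of all genes. Within slide 2, limma called 0 enzymes and 0 of all genes, 1220 of which had an unadjusted p under 0.05, with 0 of the enzymes among them. With the slide as a block, 3 enzymes were called beside 30.4% of all genes, SRXN1 being the one lost. Without normalization 1 enzyme was called beside 7.28% of all genes, and without the filter on dim probes 2 were, beside 9.67% of 35267 genes.

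The values of the enzymes moved with the scaling between arrays, and HMOX1, GCLM and GPX1 changed their side of 0. The median log2 fold change of all genes was -0.06 after cyclic loess, 0.16 after scaling to the 75th percentile, 0.08 after quantile normalization and -0.26 without normalization, and the calls split into 2947 higher and 3144 lower genes after cyclic loess and 4562 higher and 2585 lower after scaling to the 75th percentile (41.1% called). TXNRD1, SRXN1, GCLC and CAT were lower and SOD1 and SOD2 were higher under each of the 6 ways of scaling or correcting the arrays. HMOX1 and GCLM turned above 0 under the 75th percentile alone, and GPX1 under the 75th percentile, quantile normalization and no normalization.

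**Figure D4:**
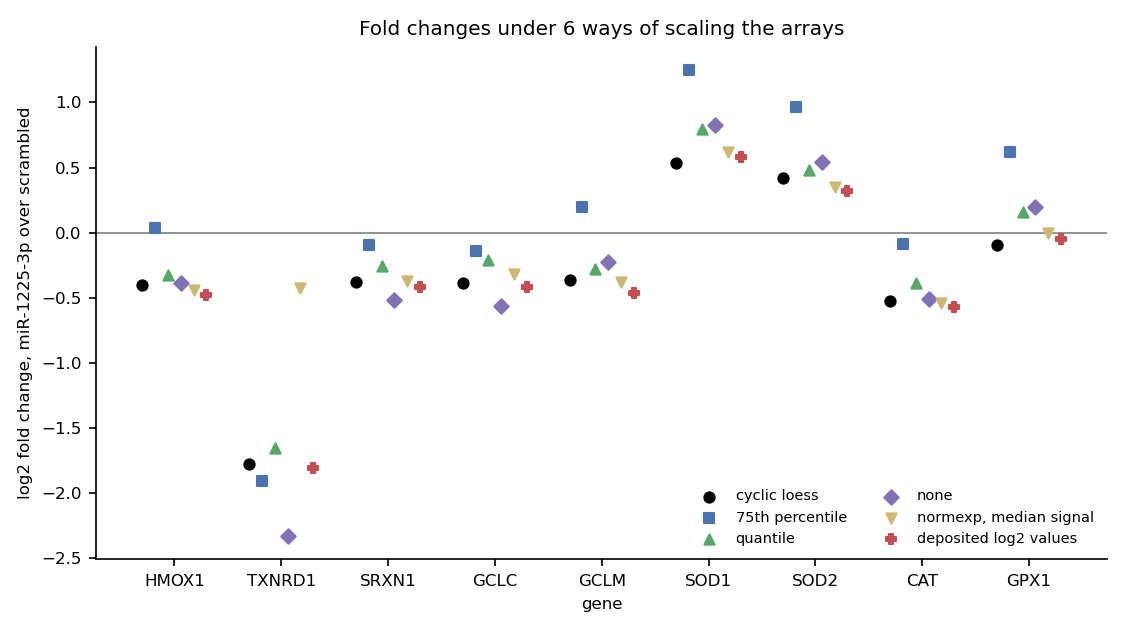
Log2 fold change of each enzyme, miR-1225-3p over scrambled (vertical axis), under 6 ways to scale the arrays or correct the background, 1 symbol each. Scaling to the 75th percentile (blue squares) gives the highest value for every enzyme but TXNRD1. All enzymes but HMOX1, GCLM and GPX1 stay on their side of 0 under all 6.

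Among the regulators of NRF2 and its relatives, 12 of 14 genes were tested, 0 rose and 5 fell. The share called was 41.7%, beside 35% of all genes tested, of which 17% were higher and 18.1% lower. The median of their log2 fold changes was -0.29 over the tested regulators. Without replicate 5, 2 rose and 6 fell, beside 55.4% of all genes called. After scaling to the 75th percentile RBX1 and MAFG were called as higher, at 0.93 and 0.78 (limma adjusted p = 0.0203 and 0.0313). NFE2, one of the 5 that fell (-0.43, and -0.39 without replicate 5), was then at 0.13 and not called. BACH1 and MAFF were still called as lower, at -0.75 and -0.47 (limma adjusted p = 0.0147 and 0.0380). The probe for NFE2L2 itself was not well above background on any array (2.64 to 3.21), and its change is therefore not known from these arrays. BACH1, the heme-sensitive repressor of HMOX1 and other NRF2 targets, ranged from 8.82 to 10.02 with miR-1225-3p and from 10.31 to 10.53 in the scrambled arrays, so that all arrays of the groups were apart. Its log2 fold change was -1.14 (standard error 0.23, limma adjusted p = 0.0139), and -1.32 without replicate 5 (limma adjusted p = 0.00031). KEAP1, at a log2 fold change of -0.33, was not called (limma adjusted p = 0.0691), but it was without replicate 5 (-0.36, limma adjusted p = 0.0332).

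SQSTM1 (p62), which binds KEAP1 and carries it to autophagy, fell by 1.15 on the log2 scale (limma adjusted p = 0.0313) and was just outside the threshold after scaling to the 75th percentile (-0.68, limma adjusted p = 0.0511). The small MAF protein MAFF fell by 0.84 (limma adjusted p = 0.0161). Without replicate 5 both were called (limma adjusted p = 0.000768 and 0.000241), with SQSTM1 at -1.46. MAFG, another partner of NRF2, had a pair of probes that disagreed, the brighter with a log2 fold change of 0.23 and the other with -2.58 (limma adjusted p = 0.217 and 0.0259 over all kept probes).

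Of the other NRF2 targets, 21 of 26 were tested, 2 rose and 4 fell. The share called was 28.6%, beside 35% of all genes, and the median log2 fold change was -0.17. The falls were led by PGD, an enzyme of the pentose phosphate pathway that supplies NADPH, with a log2 fold change of -1.63 (limma adjusted p = 0.0251). The export pumps ABCC1, which also carries glutathione conjugates, and ABCC4 followed with -1.37 and -0.78 (limma adjusted p = 0.0157 and 0.0147). All arrays of the groups were apart for ABCC1 and ABCC4, and ABCC1 was at -0.71 after normexp correction (limma adjusted p = 0.0151). The iron protein PIR and the aldo-keto reductase AKR1C1 rose, with log2 fold changes of 0.66 and 0.65 (limma adjusted p = 0.0236 and 0.0344), but a second AKR1C1 probe gave -0.22 (limma adjusted p = 0.604 over all kept probes), and near-identical relatives of AKR1C1 could share its signal. After normexp correction AKR1C1 was at 0.32 and no longer called (limma adjusted p = 0.0802). Without replicate 5 the calls remained, with PGD at -2.07, ABCC1 at -1.66, ABCC4 at -0.83, PIR at 0.73 and AKR1C1 at 0.84. Thioredoxin (TXN), the substrate of TXNRD1, and glutathione reductase (GSR) were not called, with log2 fold changes of 0.21 and 0.03, and TXN was called after scaling to the 75th percentile, at 0.86 (limma adjusted p = 0.0161).

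Among the other glutathione enzymes, 16 of 22 were tested, 5 rose and 1 fell (37.5% called, beside 35% of all genes). Their median was 0.24 on the log2 scale. The largest rises were those of the glutaredoxin GLRX3, with a log2 fold change of 0.97 (limma adjusted p = 0.0142), the microsomal transferase MGST2, with 0.95 (limma adjusted p = 0.0136), and the mitochondrial glutaredoxin GLRX2, with 0.59 (limma adjusted p = 0.0139). For each of these all arrays of the groups were apart. CHAC1, which breaks glutathione down, fell by 1.21 on the log2 scale (limma adjusted p = 0.0163). Without replicate 5 the rises were 1.17, 1.08 and 0.61, and these and CHAC1 were called (limma adjusted p = 0.00891 for CHAC1).

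In the thioredoxin, peroxiredoxin and dismutase list, 13 of 16 genes were tested, 1 rose and 3 fell. The share called was 30.8%, beside 35% of all genes, and the median was -0.24. The methionine sulfoxide reductase MSRA rose with a log2 fold change of 0.77 (limma adjusted p = 0.0160). The sestrins SESN2 and SESN3, stress proteins linked to NRF2 and to mTOR signalling, had log2 fold changes of -1.38 and -0.99 (limma adjusted p = 0.0410 and 0.0461), and each was well above background on 8 of 10 arrays. Neither sestrin was called with the slide as a block (limma adjusted p = 0.0608 and 0.0699) or after quantile normalization (limma adjusted p = 0.0605 and 0.0801). After normexp correction SESN2 was at -0.41 and called (limma adjusted p = 0.0336) and SESN3 at -0.28 and not (limma adjusted p = 0.196). The peroxiredoxin PRDX5 fell by 0.66 on the log2 scale (limma adjusted p = 0.0235), but its log2 fold change was -0.06 after scaling to the 75th percentile (limma adjusted p = 0.764). Without replicate 5 MSRA, SESN2, SESN3 and PRDX5 were called at 0.90, -1.62, -1.19 and -0.79.

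Of 11 genes for enzymes that produce superoxide, 5 were tested, 1 rose and 1 fell (40.0% called, beside 35% of all genes, median -0.41). CYBB, the catalytic subunit of the phagocyte NADPH oxidase, rose with a log2 fold change of 1.69 (limma adjusted p = 0.0312) and was well above background on all 5 miR-1225-3p and on 3 scrambled arrays. The call ended after normexp correction, where it was at 0.47 (limma adjusted p = 0.0663). NCF4, a cytosolic subunit of the same oxidase, had a log2 fold change of -1.26 (limma adjusted p = 0.0295). Both were called without replicate 5, at 2.08 and -1.60. Over all 6 lists, 23 of 69 genes tested were called, 9 higher and 14 lower, which is 33.3% beside 35% of all genes, with a median of -0.14. The balance of directions turned with the scaling. After scaling to the 75th percentile 34 of the 69 were called, 23 higher and 11 lower. Among all genes 4562 were then higher and 2585 lower (41.1% called). Without miR-1225-3p replicate 5 there were 38 calls among these 69, 17 higher and 21 lower, beside 55.4% of all genes. Without normalization ABCC1 and CHAC1 were the only called genes among those named from the lists. Every list gene named here with a call, other than NFE2, lay on the same side of 0 under all 6 scalings.

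**Figure D5:**
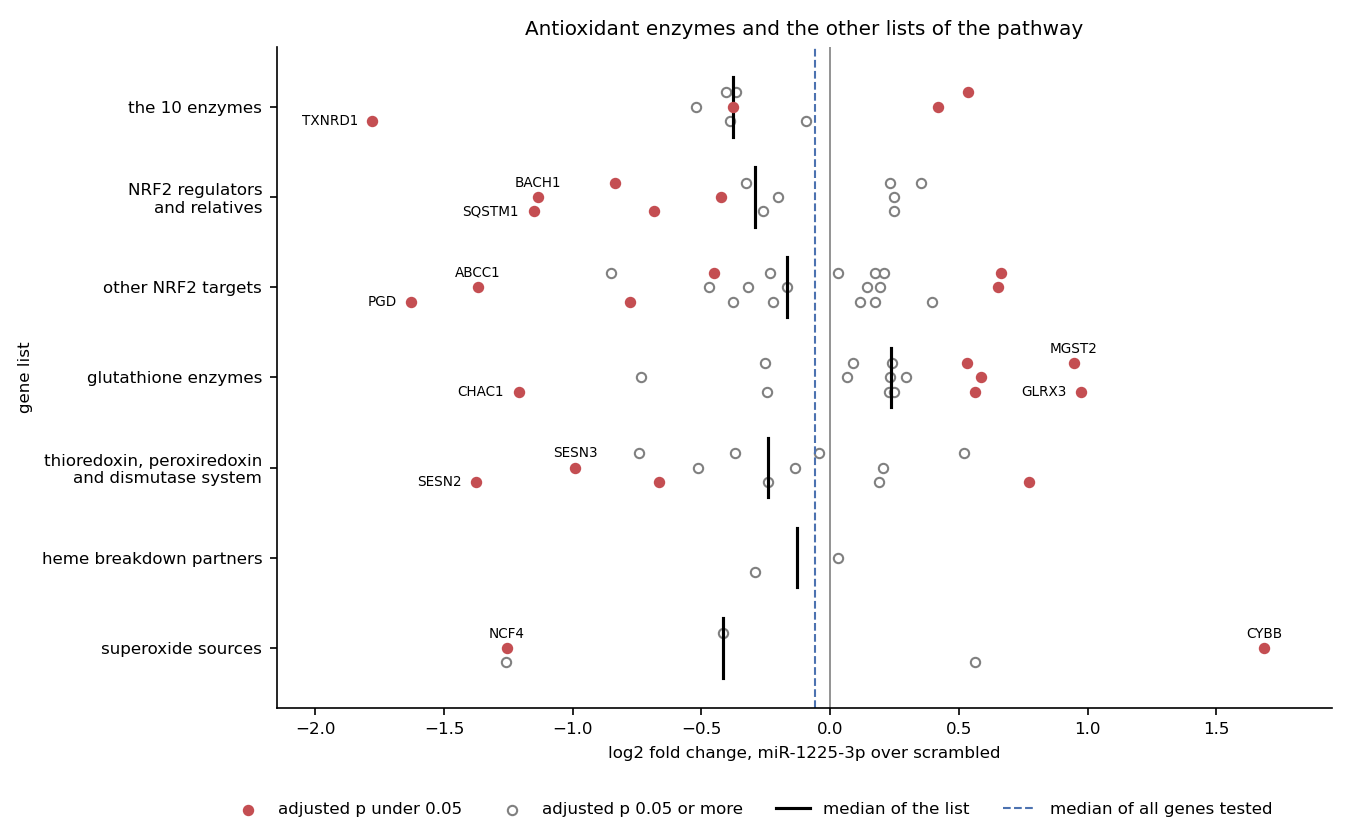
Log2 fold change, miR-1225-3p over scrambled (horizontal axis), of the 9 enzymes tested and of the tested genes of 6 related lists (rows). Filled red points have an adjusted p under 0.05 from limma, black bars are list medians, and the dashed line is the median of all genes tested, -0.06. With cyclic loess, used for all values here, the glutathione list, at 0.24, is the only list whose median lies above 0.

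The genes most like the called enzymes are given as a description over the 10 arrays, where genes that differ between the groups correlate in part through that difference. The gene most like SOD1 was PPIH (Pearson r = 0.995), that most like TXNRD1 was ZNF281 (r = 0.988) and that most like SRXN1 was CYP1B1 (r = 0.971). The closest to SOD2 was a probe with no gene name (r = 0.971).

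The labelled cell type was checked against its markers. Of 8 megakaryocyte markers, 6 were tested, 4 of them well above background on all arrays, while PF4 was on none. Their mean log2 signal ranged from 6.32 to 7.60 with miR-1225-3p, replicate 5 being the highest, and from 7.61 to 7.76 in the scrambled arrays, and ITGA2B and FLI1 fell, with log2 fold changes of -1.39 and -0.60 (limma adjusted p = 0.0437 and 0.0289), and of -1.85 and -0.53 without replicate 5. The call of ITGA2B ended with the slide as a block (limma adjusted p = 0.0628) and after scaling to the 75th percentile (limma adjusted p = 0.0524). All 4 erythroid markers were well above background on all arrays and none was called. Of 15 markers of T cells, B cells, monocytes, fibroblasts and epithelium, 8 were tested, with mean signals of 8.35 to 9.01 with miR-1225-3p and 8.33 to 8.84 in the scrambled arrays. CD3E and EPCAM rose (log2 fold changes 1.96 and 0.90, limma adjusted p = 0.0327 and 0.0156, and 2.33 and 1.07 without replicate 5). EPCAM was well above background on all 10 arrays, CD3E on 3 miR-1225-3p arrays and 1 scrambled array. CD3E thus entered the test through the miR-1225-3p group alone, and its fold change and p rest on scrambled signals near the floor. CD2, MS4A1, COL1A2, DCN and CDH1 were not well above background on any array. The part of these marker differences in the enzyme results was not tested.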

How the data were processed

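Total RNA of 10 MEG-01 samples was labelled with Cy3 and hybridized to Agilent SurePrint G3 arrays. Titles and methods, not the source label that calls the scrambled samples untreated, gave the groups. Per the file headers, Agilent Feature Extraction 10.7.3.1 made the scanner output, a different version from that in the methods, and the array design names build hg19. The authors deposited background-corrected processed signals and median signals as intensity values, spot flags, and a separate table of normalized log2 values for 29271 probes. After centring each probe, that table correlated with the values computed here with r between 0.981 and 0.998 per array. Its column medians were between 4.77 and 5.15, and its exact centring is not stated.

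Processed signals of 58717 spots were put on the log2 scale and made comparable with cyclic loess (fast variant, 3 iterations) in limma 3.58.1 under R 4.3.3, without the 4259 control spots. Outlier-flagged spots were treated as missing before the mean over a probe's spots was taken. The 20648 probes that exceeded background clearly in 3 or more arrays of 1 group entered the tests, each gene being represented by its brightest such probe. Accessions of 24910 probes matched symbols of the RefSeq table of GRCh38.p14. Groups were compared with lmFit and eBayes over 17379 genes, unpaired as in the methods, and single genes by an exact permutation test. Where replicates were not separate cultures, p-values measure only technical spread. The scripts were tested on simulated data.

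The genes named are all 10 enzymes, NFE2L2, KEAP1 and BACH1, and up to 3 of the largest rises and falls past the threshold in each of 6 lists with 92 genes. The gene closest to each called enzyme by Pearson r is named too. Genes given beside these (HMOX2, BLVRA, TXN, GSR, MAFG, RBX1, NFE2 and the markers) were added after values were seen, for their role or their change with the scaling. The enzymes and lists were chosen with earlier results of these data known. Motifs were searched in RefSeq windows, which HMOX1 and SOD1 did not have in the table used. The number of arrays limits the precision. Alternatives, 24 in all, covered normalization, background, filters, probe choice, the methods' t-test, blocks and leaving out each array, for which normalized values were kept.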

Additional observations from a re-analysis of the deposited data

Results flagged for a closer look

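In 58 groups of 5 arrays, for the enzymes and the list genes named, the highest or lowest array was compared with the gap to its neighbour (Dixon's test at 95%), and 4 groups stood out where chance gives about 1 in 20, or 2.9. Of these, 3 were miR-1225-3p replicate 5. SOD1 was 15.68 there and between 16.24 and 16.34 in the other miR-1225-3p arrays. MAFF was 9.91 there and between 8.97 and 9.18 in the others. GLRX3 was 11.23 there and between 12.14 and 12.28 in the others. SESN2 was 2.81 in miR-1225-3p replicate 4, where it was lowest, and between 4.95 and 5.66 in the other arrays of the group.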

How the results depend on the processing

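Of the 9 enzymes tested, 4 were called, beside 35% of all genes. The count was 1 without normalization between arrays (7.28% of all genes) and 2 without the filter on dim probes (9.67%). It was 2 within slide 1 (25.9%) and 0 within slide 2 (0%). When a single array was left out, it was between 1 and 6. The highest count came without miR-1225-3p replicate 5 (55.4% of all genes). The lowest came without scrambled replicate 3 or 4, or replicate 2 or 3 of the miR-1225-3p arrays (12.3% to 19.5%). Of the list genes, 23 were called, 3 without normalization, 14 without the filter and 0 within slide 2, beside the same shares of all genes. After scaling to the 75th percentile 34 list genes were called (41.1% of all genes). Of these 23 were higher and 11 lower, where cyclic loess gave 9 higher and 14 lower. When an array was left out, the count was lowest, at 10, without miR-1225-3p replicate 2 or 3 (12.3% and 13% of all genes). It was highest, at 38, without replicate 5 (55.4%). HMOX1 and GCLM turned to 0.034 and 0.19 after scaling to the 75th percentile. GPX1 turned to 0.62 after that scaling, 0.16 after quantile normalization and 0.20 without normalization. TXNRD1 kept its direction in all 23 alternatives that tested it and its call in 21. Its log2 fold changes were between -2.33 and -0.43 where any miR-1225-3p array was well above background. Requiring all arrays above background left it untested. SOD1 kept its direction in 24 of 24 and its call in 17, SRXN1 its direction in 24 and its call in 9, and SOD2 its direction in 24 and its call in 8. The cause of the changes was not tested.

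Deviations from the group means correlated between -0.401 and 0.0723 for arrays of the same number, which gave no sign of pairing by number. These correlations cannot exclude pairing, because replicate 5 of the microRNA group shifted the mean from which deviations were taken. On the first principal component it scored 56.74, beside -133.4 to -52.98 in the rest of its group. With a replicate block, limma called 0 enzymes, 0 list genes and 0 of all genes at an adjusted p under 0.05, where 4 enzymes and 7474 genes had an unadjusted p under 0.05.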
